A study of Homo sapiens with 8 samples.

Results

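The genes encoding the subunits of the proteasome, with its assembly chaperones and activator caps, were followed across 8 Affymetrix arrays of Saos-2 cells. Members were the genes whose symbol is PSMA, PSMB, PSMC, PSMD or PSME plus digits, without PSMB8, PSMB9 and pseudogenes, and a probe set counted if the platform annotation gave it a single gene. Of 41 such symbols, 35 were found among the 19775 genes with a probe set of their own, on 67 probe sets, and 34 of them passed a filter on dim signals. PSMA6, PSMB11, PSMC5, PSMD7, PSMD13 and PSME2 were not analysed here. Saos-2 is an established human osteosarcoma cell line, and the labels give p53 as null in all 8 samples. The study asked how the transcriptome of such cells responds to a compound labelled Prima, for which the sources used here give no dose. The 3 groups were untreated cells (3 arrays), cells given the compound for 6 h (3 arrays) and cells given it for 12 h (2 arrays), where the labels number the last 2 as replicates 1 and 3.

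The proteasome degrades proteins that carry ubiquitin chains. Its core particle is a barrel of alpha rings, which gate the entrance, and beta rings, which hold the proteolytic sites. A regulatory particle caps the barrel. Its base contains a ring of ATPases that unfold substrates, together with large scaffold subunits and ubiquitin receptors, and its lid contains the deubiquitinase PSMD14. When proteasome activity is inhibited, mammalian cells are known to raise transcription of most subunit genes together through the transcription factor NFE2L1, which binds antioxidant response elements in their promoters.

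Values are MAS5 signals, and on each array their mean, after 2% was trimmed at either end, was 100. They are compared between arrays for 1 probe set at a time, and not between genes. A difference is given as log2 of the signal in the first named group over that in the second. Cultures were measured in bulk, where fewer cells with a transcript and less transcript per cell cannot be told apart. All 8 osteoblast-lineage markers examined passed the filter, which lies at a signal of 18.58, with RUNX2 at 1411 to 2350 and COL1A1 at 2764 to 4801. ALPL, SP7, COL1A2 and IBSP were dimmer, with medians of 139.6, 100.9, 65.43 and 54. The filter was also passed by 6 of 10 markers of other lineages. KRT18 stood at 341.7 to 2064, EPCAM at 26 to 244.6, and KRT8, PTPRC, HBB and PECAM1 at medians of 19.86 to 41.15. CDH1, CD3E, CD14 and CDH5 fell under the filter. The replicate 2 arrays stood apart, with median signals of 47.5 (6 h) and 50.9 (untreated), against 14.2 to 24.95 on the other 6 arrays, and the 12 h group has no array so numbered. The signal of ACTB at its 3′ end over that at its 5′ end, which is higher in degraded RNA, reached 2.29 on 12 h replicate 1 and 1.73 on 6 h replicate 1, with 1.125 to 1.38 elsewhere. The same ratio for GAPDH differed little, at 1.038 and 0.978 on these arrays and 0.927 to 1.01 elsewhere.

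The subunit genes varied together from array to array, and they did so by replicate number more than by treatment. Both replicate 2 arrays lay below all 6 other arrays for 24 of the 34 tested members (70.6%), against 21% of all 12063 genes tested. The 3 replicate 3 arrays lay above the other 5 for 20 members (58.8%), against 11.5% of all genes. This held in the core particle, where the replicate 2 arrays were lowest for 12 of 14 genes and the replicate 3 arrays highest for 9, and in the regulatory particle, where the counts were 9 and 7 of 14. The lowest signal of the 8 fell on a replicate 2 array for 30 of 34 members, against 43.2% of all genes. Whether the distribution of signals on the replicate 2 arrays, where 0.0622% and 0.0713% of probe sets lay at the floor set for dim signals against 6.26% to 20.8% on the others, had a part in this was not tested. Members were also brighter than the genes they are set beside, with a median log2 signal of 10.66 against 7.11 for all genes tested. The part of signal level in these shares was likewise not tested.

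**Figure D1:**
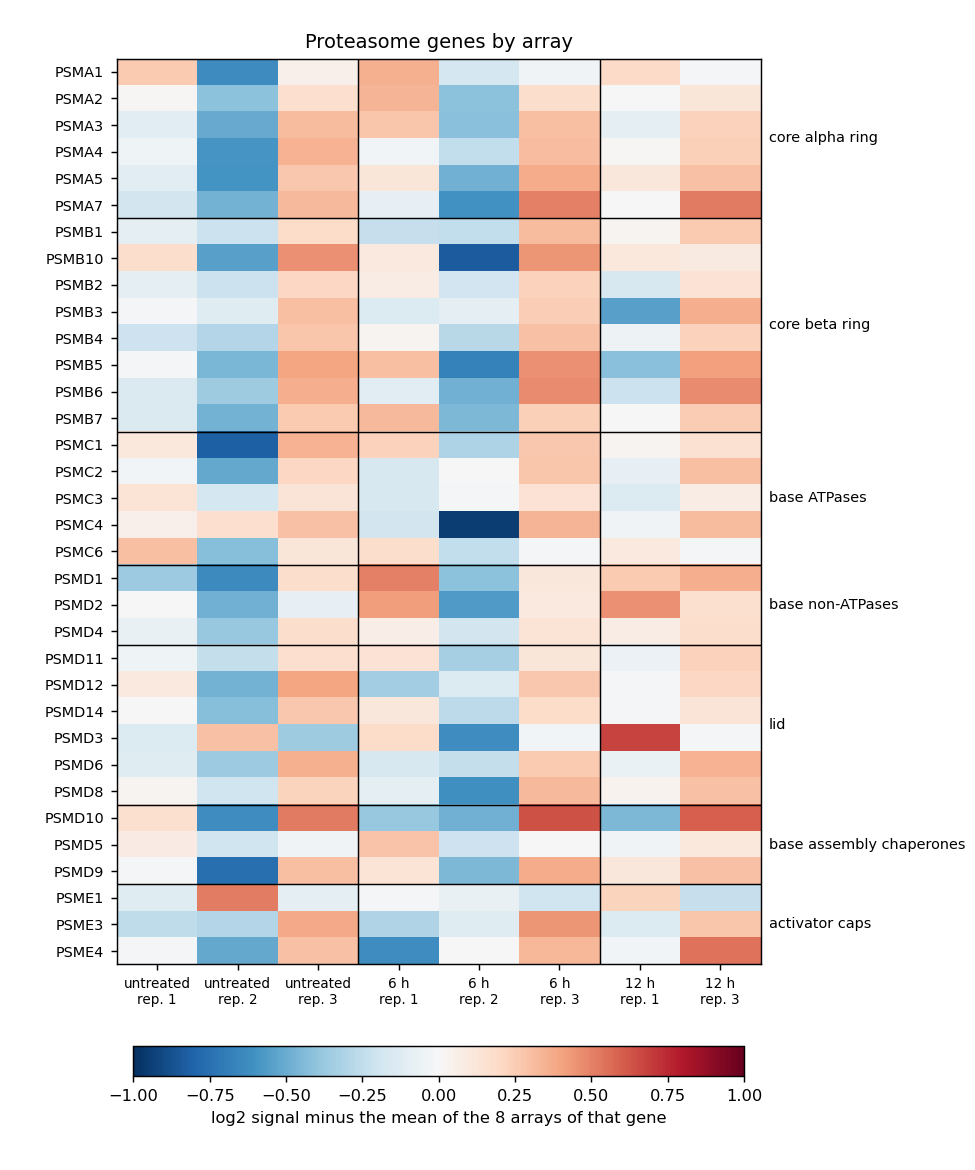
Log2 signal of each of the 34 tested genes on each of the 8 arrays, as the difference from that gene's mean over all arrays (colour, red above and blue below), with genes in rows by role and arrays in columns by time. The columns of replicate 2 are blue for most genes and those of replicate 3 red, at every time that has them.

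Expressed as the deviation from each gene's untreated mean, the median over the 34 members was 0.02, -0.34 and 0.33 on untreated replicates 1, 2 and 3. It was 0.11, -0.21 and 0.33 on 6 h replicates 1, 2 and 3, and 0.05 and 0.30 on 12 h replicates 1 and 3. The spread between arrays of a group was thus 0.30 (SD), and the medians of one replicate number lay closer together across times than those of one time did across numbers. Around the group means, the residual SD of a member had a median of 0.35 on the log2 scale, and ran from 0.16 for the ATPase PSMC3 to 0.63 for the assembly chaperone PSMD10. For all genes tested, which were dimmer (median log2 signal 7.11 against 10.66 for members), the median residual SD was 0.45.

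The first comparison asked how the subunit genes stood after 12 h against untreated cells. No member passed the test, and 0 of 12063 genes did (0%; limma with Benjamini-Hochberg adjustment, smallest adjusted p 0.9999). At an unadjusted p under 0.05 stood 74 genes (0.613%) and none of the members, whose smallest p was 0.0919, for PSMD1. The log2 difference was above 0 for 30 of 34 members (88.2%), against 59.9% of all genes, and its median was 0.17 for members and 0.083 for all genes. Within same-numbered arrays the shift was not seen. The median over members was -0.0092 in the replicate 1 pair, with 16 of 34 above 0, and -0.00024 in the replicate 3 pair, with 17 of 34 above 0. With the replicate number as a block in the fit, 262 genes (2.17%) and no member had an unadjusted p under 0.05, and none passed. In that fit 17 of 34 members were above 0, with a median of 0.00026, against 0.045 for all genes. Without both replicate 2 arrays, the median was 0.013 and 19 of 34 members were above 0.

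**Figure D2:**
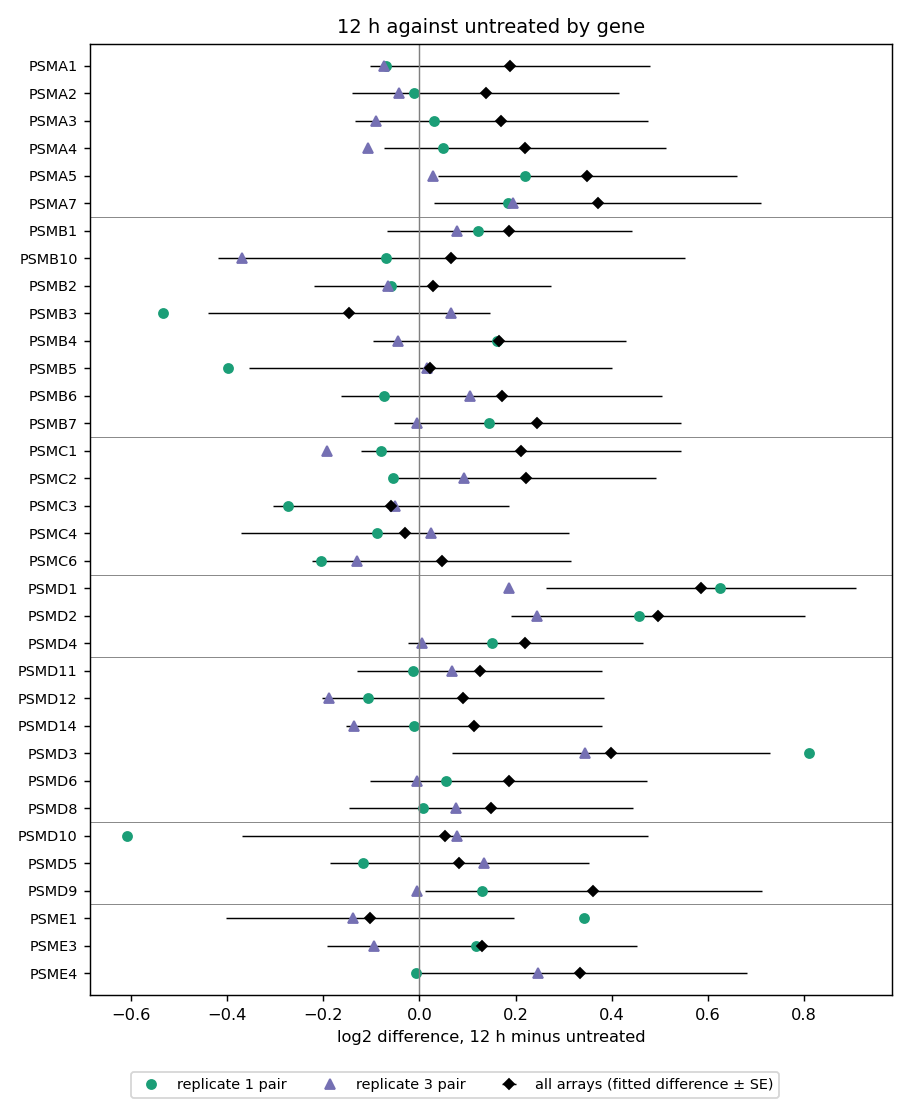
Log2 difference between 12 h and untreated cells for each of the 34 tested genes, grouped by role from the alpha ring at the top to the activator caps at the bottom. Black diamonds give the fitted difference over all arrays with its SE, green circles the replicate 1 pair and purple triangles the replicate 3 pair. Most diamonds lie right of 0, while the pairs lie on both sides of it.

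The scaffold subunits of the base stood highest. PSMD1, the largest scaffold subunit of the regulatory particle (chromosome 2), had signals of 820.1 and 878.7 after 12 h, against 531.2, 440.6 and 772.1 in untreated cells. Both 12 h arrays lay above all untreated arrays. The log2 difference was 0.59 ± 0.32 (SE), which did not pass the test (limma, adjusted p 0.9999). With the block it was 0.38 ± 0.21. A second PSMD1 probe set gave 639 and 790.6 after 12 h, against 623, 369.4 and 758.4 in untreated cells, so its groups overlapped, with a difference of 0.35.

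PSMD2, the partner scaffold that docks ubiquitin shuttle factors and is encoded on chromosome 3, gave 1668 and 1359 after 12 h, against 1215, 872.7 and 1148 in untreated cells. Its groups did not overlap either, and the difference was 0.50 ± 0.31 (SE) (1.41-fold) and 0.29 ± 0.15 with the block, with an adjusted p of 0.9999 in limma. PSMD2 was singled out after its values were seen. PSMD1 and PSMD2 were the only members of 34 whose 12 h arrays all lay above the untreated ones (5.88%), a smaller share than the 9.6% of all genes. No tested member's 12 h arrays all lay below, against 4.89% of genes.

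The third subunit of this group, the ubiquitin receptor PSMD4 (chromosome 1), had 2788 and 2991 after 12 h, against 2510, 2034 and 2982 in untreated cells. Its highest untreated array lay between both 12 h arrays, and the difference was 0.22 ± 0.24 (SE). Averaged over all 4 of its probe sets, a dim one included, the PSMD4 difference was -0.02. All 3 base scaffold and receptor genes were above 0 in both same-numbered pairs, with a mean of 0.41 in the replicate 1 pair and 0.14 in the replicate 3 pair. Replicate 1 holds the 12 h array with the ACTB ratio of 2.29 and a GAPDH ratio of 1.038. The part of RNA quality in these values was not tested.

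In the lid, PSMD3, a structural subunit encoded on chromosome 17, stood at 832 and 516.4 after 12 h, against 473.9, 637.1 and 406.8 in untreated cells. The 12 h replicate 1 array was its highest of the 8, and the other 12 h array lay within the untreated range. Its difference was 0.40 ± 0.33 (SE), with 0.81 in the replicate 1 pair and 0.34 in the replicate 3 pair, and 0.055 once 12 h replicate 1 was left out. PSMD14, the lid deubiquitinase that removes ubiquitin chains from substrates, had 2059 and 2267 against 2074, 1539 and 2491 in untreated cells. Both of its 12 h signals lay inside the untreated range, and the difference was 0.11 ± 0.27 (SE), and -0.05 with the block. All 6 lid genes tested were above 0 at 12 h, with a median of 0.14, but 2 of 6 were with the block, where the median was -0.014.

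Promoter sequences are shown for PSMD1, PSMD2 and PSMD3 and for the beta subunit PSMB3, to set promoters of 3 genes at the upper end of the 12 h differences beside that of the gene at the lower end. They are RefSeq sequences in GRCh38.p14, on the plus strand, and capitals mark matches to the core of the antioxidant response element (TGACNNNGC, reverse GCNNNGTCA) and to the CCAAT box (CCAAT, reverse ATTGG). The first 3 are the 250 bases before the annotated start, at chr3:184298991-184299240 for PSMD2, chr17:39980557-39980806 for PSMD3 and chr17:38752491-38752740 for PSMB3. The PSMD1 sequence holds 30 bases after the start, at chr2:231056887-231056916, around its only match.
PSMD2: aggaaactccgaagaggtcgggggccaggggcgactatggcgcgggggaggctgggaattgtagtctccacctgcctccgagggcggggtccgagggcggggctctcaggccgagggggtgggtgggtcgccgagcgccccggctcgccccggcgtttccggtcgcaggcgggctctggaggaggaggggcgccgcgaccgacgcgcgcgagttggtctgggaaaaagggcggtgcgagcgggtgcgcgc
PSMD3: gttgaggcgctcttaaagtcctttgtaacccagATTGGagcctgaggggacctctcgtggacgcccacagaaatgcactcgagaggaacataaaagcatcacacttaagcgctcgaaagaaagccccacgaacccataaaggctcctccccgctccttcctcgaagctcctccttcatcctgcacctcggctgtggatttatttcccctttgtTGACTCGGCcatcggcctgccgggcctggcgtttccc
PSMB3: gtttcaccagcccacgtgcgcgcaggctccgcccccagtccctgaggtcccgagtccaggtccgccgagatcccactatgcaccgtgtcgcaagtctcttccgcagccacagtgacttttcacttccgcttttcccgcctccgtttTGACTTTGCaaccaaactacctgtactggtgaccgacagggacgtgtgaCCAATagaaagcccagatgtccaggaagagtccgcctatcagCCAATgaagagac
PSMD1: ggcggcctgaggaggcgacTGACTGAGCag

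PSMD2 held no match, PSMD3 held TGACTCGGC beginning 37 bases before its start, and PSMB3 held TGACTTTGC beginning 104 bases before. PSMD3 held a second match to the element core, GCTCCGTCA, beginning at base 34 after its start and so outside the stretch shown. Of the 35 genes, 30 had a sequence from 250 bases before to 50 bases after the start in the table used, and PSMA7, PSMB1, PSMB6, PSMB7 and PSMD4 had none. The antioxidant response element core stood in 9 of the 30, namely PSMB3, PSMC4, PSMD1, PSMD3, PSMD5, PSMD9, PSMD12, PSME1 and PSME4, against 13.3% of 35116 promoters of the same length. The CCAAT box stood in 14 of 30, PSMA5, PSMB2 and PSMD14 among them, against 34.6% of all promoters, and matches of the 2 motifs did not overlap. Genes with the element core lay at both ends of the 12 h differences, PSMD1 and PSMD3 near the top and PSMB3 and PSME1 at the bottom. A match is a description of the letters and does not show binding.

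Each proteolytic beta subunit differed between 12 h and untreated cells by less than its SE. PSMB5, which carries the chymotrypsin-like site and is encoded on chromosome 14, gave 1031 and 1826 after 12 h, against 1360, 1003 and 1806 in untreated cells. One 12 h array lay near the lowest untreated array and the other near the highest, and the difference was 0.02 ± 0.38 (SE), with -0.40 in the replicate 1 pair and 0.02 in the replicate 3 pair. PSMB6, with the caspase-like site, stood at 1110 and 1786 against 1169, 1009 and 1660 in untreated cells, a difference of 0.17 ± 0.33. PSMB7, with the trypsin-like site, stood at 2341 and 2799 against 2119, 1692 and 2809 in untreated cells, a difference of 0.25 ± 0.30. For PSMB6 and PSMB7 too the groups overlapped. A dimmer PSMB7 probe set, close to the filter, went the other way by -1.33. PSMB10, the interferon-inducible counterpart of PSMB7 in the immunoproteasome, had 72.97 and 72.27 after 12 h, against 76.6, 46.65 and 93.3 in untreated cells. It was lower in both same-numbered pairs, by -0.07 and -0.37.

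**Figure D3:**
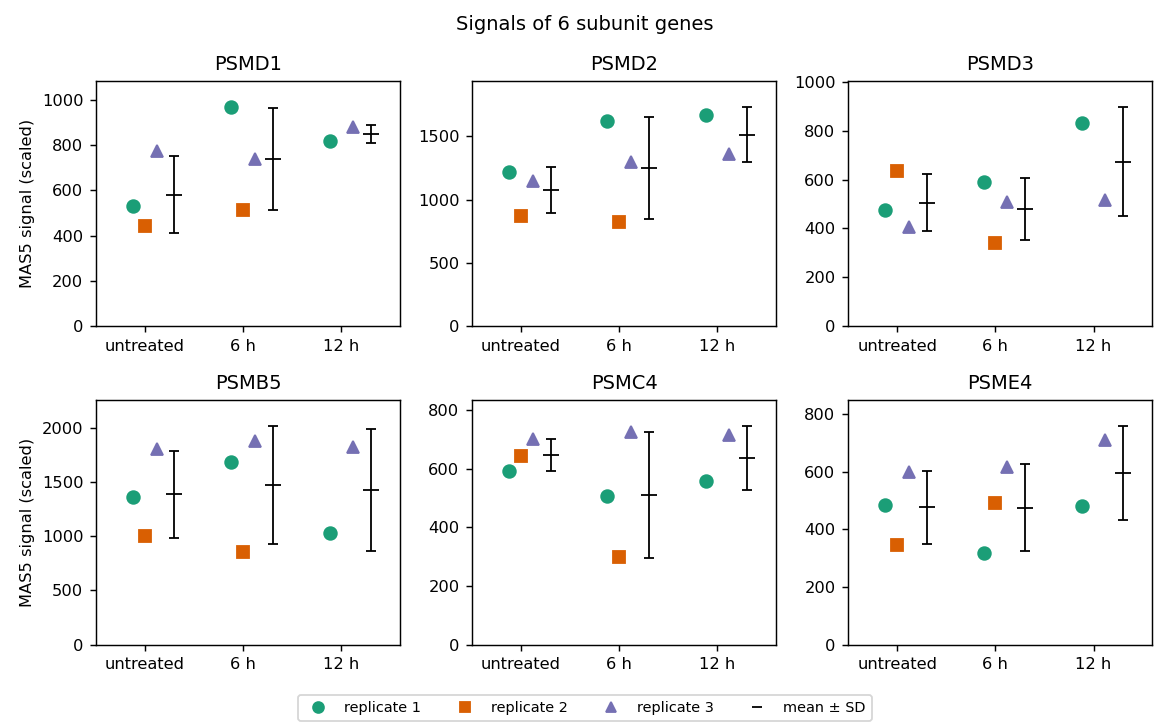
MAS5 signals of PSMD1, PSMD2, PSMD3, PSMB5, PSMC4 and PSME4 on each array (points, shape and colour by replicate number) in untreated cells (3 arrays), after 6 h (3 arrays) and after 12 h (2 arrays), with the group mean and SD beside them on linear axes from 0. The 12 h points lie above all untreated points for PSMD1 and PSMD2 and overlap them for the other 4 genes.

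At the lower end stood PSMB3, a beta subunit without a proteolytic site, with 1145 and 2149 after 12 h, against 1658, 1536 and 2054 in untreated cells. Its 12 h arrays were the lowest and the highest of the 8. The difference was -0.15 ± 0.29 (SE), which became 0.31 without 12 h replicate 1 and -0.60 without 12 h replicate 3, so a single array sets its sign. In the alpha ring all 6 genes tested were above 0, between 0.14 for PSMA2 and 0.37 ± 0.34 (SE) for PSMA7, and 4 of 6 were with the block. PSMA7 had 2088 and 2985 after 12 h, against 1837, 1502 and 2607 in untreated cells, and was higher in both pairs, by 0.18 and 0.20, with overlapping groups. PSMA8, the testis-type alpha subunit, did not pass the filter and has no test. Its signals were 3.53 and 0.513 after 12 h, against 7.24, 41.2 and 4.25 in untreated cells, so both 12 h signals lay below all untreated ones.

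Of the ATPases of the base, 3 of 5 were above 0, with a median of 0.05, or 1 of 5 with a median of -0.11 with the block. PSMC2 was highest at 0.22 ± 0.27 (SE), with 2867 and 3732 after 12 h against 2977, 2121 and 3500 in untreated cells. PSMC3, with the smallest spread of all members, was lowest at -0.06 ± 0.25, with 882.4 and 1024 after 12 h against 1066, 859.9 and 1060 in untreated cells. For both ATPases the groups overlapped. The base assembly chaperones PSMD5, PSMD9 and PSMD10 had differences of 0.08 ± 0.27, 0.36 ± 0.35 and 0.05 ± 0.42 (SE), which were -0.01, 0.10 and -0.21 with the block. PSMD10, also known as gankyrin, stood at 812.6 and 1677 after 12 h, against 1240, 722.3 and 1590 in untreated cells, with -0.61 in the replicate 1 pair and 0.08 in the replicate 3 pair.

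Among the activator caps, which open the core without ATP, PSME4 had 481.5 and 711.7 after 12 h, against 484, 344.3 and 599.8 in untreated cells. One of its 12 h arrays was the highest of the 8 and the other lay among the untreated ones, with a difference of 0.34 ± 0.35 (SE). Its other 2 probe sets gave 0.31 and -0.99. PSME1, a subunit of the interferon-inducible cap, gave 350.1 and 255.6 after 12 h, against 276.1, 426.6 and 281.2 in untreated cells, a difference of -0.10 ± 0.30. It was the only tested member whose highest signal fell on a replicate 2 array. PSME3, the nuclear cap, differed by 0.13 ± 0.32.

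Over the 2 same-numbered pairs, 8 tested members were higher after 12 h in both (23.5%), against 34% of all genes, namely PSMA5, PSMA7, PSMB1, PSMD1, PSMD2, PSMD3, PSMD4 and PSMD8. Another 9 were lower in both (26.5%), against 25% of all genes, namely PSMA1, PSMA2, PSMB2, PSMB10, PSMC1, PSMC3, PSMC6, PSMD12 and PSMD14. The remaining 17 went one way in one pair and the other way in the other. Of 25 other probe sets of these genes above the filter, 18 had the same sign as the probe set used at 12 h against untreated cells, and 18 at 6 h. Opposite signs at 12 h were found in PSMB4, PSMB7, PSMC2, PSMD10, PSMD12, PSME3 and PSME4. At 6 h against untreated cells they were found in PSMA5, PSMB1, PSMD4, PSMD11, PSME3 and PSME4. At 12 h against 6 h, 13 of the 25 had the same sign and 12 the opposite one. The opposite signs lay in PSMA1, PSMA2, PSMB2, PSMB4, PSMB7, PSMC2, PSMD1, PSMD9, PSMD10, PSMD12 and PSME4.

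The second comparison set 6 h against untreated cells, where all 3 replicate numbers are present on both sides. No member and 0 of 12063 genes passed (0%; limma, smallest adjusted p 0.9999), and none of the members was among the 79 genes (0.655%) at an unadjusted p under 0.05. With the block the genes at that level were 493 (4.09%), again with no member and none passing. The log2 difference was above 0 for 21 of 34 members (61.8%), against 53% of all genes, with a median of 0.057 for members and 0.022 for all genes. Within the pairs the median was 0.099 for replicate 1, 0.060 for replicate 2 and 0.019 for replicate 3. Without untreated replicate 2 the median was -0.11, with 5 of 34 above 0, and without untreated replicate 3 it was 0.22, with 30 of 34 above 0.

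No member's 6 h arrays lay wholly above (2.03% of all genes) or below (1.51%) the untreated ones. PSMD1 again stood highest, with 967.6, 515.2 and 738.5 after 6 h, against 531.2, 440.6 and 772.1 in untreated cells. Its 6 h replicate 1 array was the highest of the 8, and the other 6 h arrays lay in the untreated range. The difference was 0.34 ± 0.29 (SE), with 0.87, 0.23 and -0.06 in the pairs of replicates 1, 2 and 3. PSMC4, an ATPase of the base encoded on chromosome 19, stood lowest, with 505.7, 297.6 and 725.9 after 6 h, against 593.3, 644.2 and 702.4 in untreated cells. Its difference of -0.43 ± 0.31 (SE) carried the smallest unadjusted p of a member, 0.180, and an adjusted p of 0.9999 in limma. The replicate 2 pair gave -1.11, and without both replicate 2 arrays the difference was -0.09.

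PSMA5, PSMB2, PSMB4 and PSMD9 were higher in all 3 pairs (11.8% of members, against 13.6% of all genes), and PSMB10 was lower in all 3 (2.94%, against 10.4%). PSMD9, a base assembly chaperone, gave 428.3, 286.1 and 505 after 6 h, against 386, 231.1 and 479.8 in untreated cells. Its pair differences were 0.15, 0.31 and 0.07, and the fitted difference was 0.18 ± 0.31 (SE). PSMB5 stood at 1689, 859.5 and 1886 after 6 h, against 1360, 1003 and 1806 in untreated cells. The 6 h signals reached past the untreated ones at both ends, and the difference was 0.05 ± 0.34. PSMD3 differed by -0.09 ± 0.30, with -0.91 in the replicate 2 pair and 0.32 and 0.33 in those of replicates 1 and 3. Left without both replicate 2 arrays, it was at 0.32.

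The third comparison, 12 h against 6 h, gave 0 of 12063 genes and no member past the threshold (0%; limma, smallest adjusted p 1), and 88 genes (0.73%) with no member at an unadjusted p under 0.05. Above 0 stood 30 of 34 members (88.2%), against 57.2% of all genes, with a median of 0.11 for members and 0.061 for all genes. Of the 25 other probe sets of members above the filter, 13 had the same sign as the probe set used and 12 the opposite one. With the block 297 genes (2.46%) and no member were at that level, 11 of 34 members were above 0, with a median of -0.044, and in the pairs the medians were -0.014 and -0.029. Members higher at 12 h in both pairs were 7 (20.6%), against 26% of genes, and 10 were lower in both (29.4%), against 23.6%. No member's groups were apart in either direction (7.1% and 4.5% of all genes). The smallest p of a member was 0.164, for PSMD3, at a difference of 0.49 ± 0.33 (SE) and an adjusted p of 1 in limma. PSMB5 stood at 1031 and 1826 after 12 h, against 1689, 859.5 and 1886 after 6 h, with -0.71 in the replicate 1 pair and -0.05 in the replicate 3 pair.

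The core particle was set against the regulatory particle on each array, as the mean deviation of 14 core genes minus that of 14 regulatory particle genes. The 2 particles moved together from array to array. The core mean ran from -0.355 on untreated replicate 2 to 0.37 on 6 h replicate 3, and the regulatory mean from -0.29 on 6 h replicate 2 to 0.25 on 12 h replicate 3. Core minus regulatory was -0.04, -0.08 and 0.12 on untreated replicates 1, 2 and 3. It was 0.05, -0.04 and 0.14 on 6 h replicates 1, 2 and 3, and -0.15 and 0.07 on 12 h replicates 1 and 3. Within each time the replicate 3 array was highest, and the groups overlapped throughout.

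**Figure D4:**
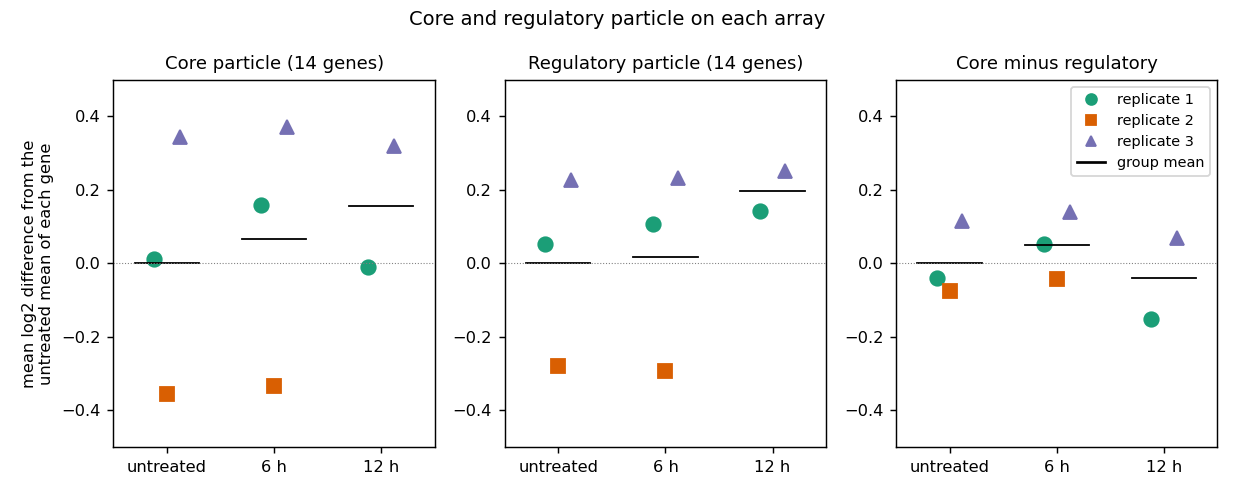
Mean log2 difference from each gene's untreated mean over the 14 core genes (left), over the 14 regulatory particle genes (middle), and the first minus the second (right), for each array in untreated cells, after 6 h and after 12 h, with bars at group means. Both particles are lowest on the replicate 2 arrays and highest on the replicate 3 arrays. Their difference stays between -0.15 and 0.14.

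Against untreated cells, core minus regulatory was 0.05 after 6 h and -0.04 after 12 h, both smaller than its SD of 0.11 between arrays of a group. With the block these values were 0.05 and -0.08. In same-numbered pairs the value was 0.09, 0.04 and 0.02 after 6 h for replicates 1, 2 and 3, and -0.11 and -0.05 after 12 h for replicates 1 and 3. In the fit without the block, leaving out 12 h replicate 1 gave 0.07 at 12 h and leaving out 12 h replicate 3 gave -0.15. Without 12 h replicate 1 and with the block it was -0.03. Against 6 h, the 12 h value was -0.09, and -0.13 with the block, where 2 of 14 core genes and 7 of 14 regulatory particle genes were above 0. The pairs gave -0.205 for replicate 1 and -0.07 for replicate 3. Without the block, leaving out 12 h replicate 3 gave -0.20 and leaving out 12 h replicate 1 gave 0.02. The difference between the 2 particles has no test of its own here.

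Genes that build, feed or control the proteasome but are no subunits were examined in 4 lists, chosen with earlier results of these data known. Of 41 genes listed, 35 were tested and none passed in any comparison. At 12 h against untreated cells, 4 of 5 core assembly chaperones were above 0, with a median of 0.13, or -0.16 with the block. Among other proteasome-bound proteins, 14 of 15 were above 0, with a median of 0.29, or 0.064 with the block. The highest was the ubiquitin shuttle factor UBQLN4, with 406.7 and 215.1 after 12 h, against 206.8, 265.2 and 172.7 in untreated cells. Its difference was 0.48 ± 0.36 (SE), and 0.68 with the block. The same-numbered pairs gave 0.98 for replicate 1 and 0.32 for replicate 3. Without 12 h replicate 1, whose ACTB ratio was 2.29, it was 0.02. There the remaining 12 h array stands against an untreated mean that includes replicate 2 at 265.2. The part of RNA quality was not tested. The lowest was the deubiquitinase UCHL5 at -0.09 ± 0.31. All 8 genes of ubiquitin supply and of the p97 unfoldase were above 0, with a median of 0.32, and with the block all 8 again, with a median of 0.20, against 0.045 for all genes.

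UBA1, the main ubiquitin-activating enzyme, stood at the top of that list with 1363 and 903.5 after 12 h, against 759.4, 810.3 and 636.8 in untreated cells. Both 12 h arrays lay above the untreated ones, as for 3 of the 8 genes in this list and 9.6% of all genes. The difference was 0.60 ± 0.35 (SE; adjusted p 0.9999 in limma), and 0.30 without 12 h replicate 1. NPLOC4, an adaptor of p97, was lowest at 0.09 ± 0.28. NFE2L1, which controls subunit genes, gave 539.5 and 536.4 after 12 h, against 370.3, 441.4 and 430.1 in untreated cells. Its groups did not overlap, and the difference was 0.38 ± 0.27 (SE), with 0.47 under the block and an adjusted p of 0.9999. After 6 h NFE2L1 stood at 404.3, 626.6 and 563.9, with overlap at replicate 1 and a difference from untreated cells of 0.34 ± 0.25. Of 7 genes of proteasome gene regulation, 5 were above 0 at 12 h, from -0.20 ± 0.49 for MAFF to 0.67 ± 0.44 for MAFG (SE).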

How the data were processed

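Total RNA of 8 Saos-2 samples was hybridised as biotin-labelled cRNA, 1 array per sample, as the labels' protocols say. Each deposited value is the linear intensity of a probe set from the MAS5 method, per the submitters' processing notes, whose version and settings are not given in the sources used here. This method scales each array to a common level, so a shift of all genes is not visible, and the number of arrays limits the precision. Groups came from the labels, which do not say whether replicates were separate cultures. The p-values then measure only how far these samples spread, and that may be technical. A 12 h replicate 2 was not analysed here.

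Of 54675 probe sets, 62 controls were left out, 41091 had 1 gene symbol in the platform annotation, 1801 had several and 11721 stayed unnamed. Signals under the 10th percentile (2.385) were set to it, log2 was taken, and each of 19775 genes was represented by its brightest probe set. The 12063 genes with a mean log2 signal above the median of all probe sets (4.216) were tested with limma 3.58.1 under R 4.3.3 (lmFit, eBayes with a variance trend, 3 groups in 1 fit, two-sided, Benjamini-Hochberg, threshold 0.05). Lists were described by counts and medians. The steps were tested on simulated data, 5 simulations with 200 changed genes.

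The members, the lists and the tests were chosen with earlier results of these data known. Named members were those highest and lowest in each role list at 6 h and 12 h, the proteolytic subunits, PSMD4, PSMD14 and those under the filter, and members whose probe sets disagree are given by name alone. PSMD2 and the other members named beside counts were added after their values were seen. Deviations across genes correlated at 0.108 to 0.637 in 7 same-numbered pairs and at -0.576 to 0.333 in 14 others. That contrast is partly built in because deviations within a group sum to 0. For number 1 the link was weak, at 0.108 to 0.163, against 0.49 to 0.64 for numbers 2 and 3. The 12 h replicate 1 array correlated more with the 6 h and untreated replicate 2 arrays, at 0.29 and 0.33. The numbers were still taken to pair samples, and fits were repeated with the number as a block. Results of the replicate 1 pairs and of the block rest partly on this weak link. Alternatives were quantile normalization, centring on array medians, a floor of 1, a pseudocount of 32, no filter, a filter at the 75th percentile, averaged probe sets, the block, array weights, no variance trend, and arrays left out. Promoters were RefSeq sequences in GRCh38.p14, matched by symbol.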

Additional observations from a re-analysis of the deposited data

How the results depend on the processing

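No alternative put a gene or a member past the threshold in any of the 3 comparisons. Array weights gave 360, 634 and 106 genes (0, 1 and 0 members) at an unadjusted p under 0.05 for 6 h against untreated, 12 h against untreated and 12 h against 6 h, where the unweighted fit gave 79, 74 and 88. The replicate block gave 493, 262 and 297. With arrays centred on their medians, the member median was 0.75 at 12 h against untreated and 0.70 against 6 h, but all genes moved with it, to 0.66 and 0.65, so members stood 0.085 and 0.049 above them. With no filter PSMA8 enters the core, and core minus regulatory was -0.18 at 12 h against untreated and -0.26 against 6 h. Leaving out arrays in turn moved the member median between -0.11 and 0.22 for 6 h against untreated, between 0.013 (without untreated replicate 2) and 0.30 for 12 h against untreated, and between -0.039 (without 6 h replicate 2) and 0.24 for 12 h against 6 h. Core minus regulatory ran from 0.0055 to 0.11, from -0.15 to 0.07 and from -0.20 to 0.02 over the same fits. After quantile normalization the 12 h member median was 0.026 against untreated, under the 0.063 of all genes, and -0.023 against 6 h, and with the replicate block added, an alternative chosen after seeing the data, it was -0.024 and -0.048. A second such alternative, the replicate block without 12 h replicate 1, gave 0.0089 at 12 h against untreated and core minus regulatory at -0.03. PSMD1, PSMD2 and PSMD3 stayed above 0 at 12 h against untreated under every setting run and with any 1 array left out, although PSMD3 was at 0.055 without 12 h replicate 1. The mean of all probe sets left 20 of 34 members above 0 there and turned 10 below 0, namely PSMA3, PSMB1, PSMB2, PSMB7, PSMD4, PSMD5, PSMD6, PSMD10, PSMD12 and PSME4. In PSMA3, PSMB1, PSMB2, PSMD4, PSMD5 and PSMD6, the probe sets below 0 all lay under the filter. That of PSMB7 lay just above it, at a mean log2 signal of 4.225 against 4.216. In PSMD10, PSMD12 and PSME4 the probe sets below 0 lay above the filter. Leaving out single 12 h arrays for UBA1, UBQLN4, NFE2L1 and MAFG was likewise chosen after seeing the data, and all 4 stayed above 0. The causes of these shifts were not tested.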
